A study of Arabidopsis thaliana with 2 samples.

Results

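Intergenic peaks close to gene ends were peaks of chromatin bound by the MYB3R3-GFP fusion protein whose midpoint lay outside every protein-coding gene of Arabidopsis thaliana and no more than 500 bp from the nearest end of such a gene. The deposited list of 2931 peaks held 905 of them (30.9%). The members were chosen by position alone, so their scores, widths, neighbours and nearest genes were free to vary, while their distance from a gene end was set by the rule. The peaks came from 1 ChIP library, which means chromatin immunoprecipitation followed by sequencing. It was made with an antibody against green fluorescent protein (GFP) from entire seedlings of the Col-0 background that expressed MYB3R3-GFP and had germinated 9 days earlier. The seedlings had been cultured in liquid Murashige and Skoog (MS) medium with 2% sucrose at 22 °C under continuous light and received no treatment. An input library of the same line and age was not analysed here, and neither was a precipitation from plants without the fusion. The sources used here do not give the promoter of the fusion, the number of lines or the endogenous MYB3R3 allele. The study asked where in the genome MYB3R3 binds.

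MYB3R3 belongs to the MYB3R family of plant transcription factors, which carry 3 MYB repeats and act on genes used at the G2 phase and at mitosis. Some members activate these genes in dividing cells, while others, MYB3R3 among them, are known as repressors that hold them down outside that phase. MYB3R repressors are found in complexes with E2F and retinoblastoma-related (RBR) proteins that resemble the animal DREAM complex. The genome of Arabidopsis is compact, so the short stretches between neighbouring genes hold promoters, gene tails and many small RNA genes side by side.

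With 1 library there was no replicate error, so no test was made. Shares are given with 95% Wilson intervals, which cover counting error only. Whole seedlings mix dividing and non-dividing cells, so few cells with strong binding and many with weak binding cannot be told apart. Strand was not used here, and a gene end may be the 5′ or the 3′ end.

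The space outside genes and within 500 bp of an end came to 15.8 Mb, or 13.2% of the 5 chromosomes, and held 57.4 peaks per Mb, against 24.6 per Mb over the whole list. Peaks were denser still just inside genes, within 200 bp of an end, at 87.7 per Mb (992 peaks). They were sparser from 500 to 1000 bp outside genes, at 20.3 per Mb (173 peaks), and deeper inside genes, at 11.9 per Mb (631 peaks). Over 1000 bp from any gene the density was 7.58 per Mb (230 peaks). Among the 905 members the distance from the gene end had a median of 102.5 bp, with quartiles of 48.5 and 197.5 bp. The first 100 bp held 442 members at 105 per Mb of space, the next 100 bp held 241 at 68.9 per Mb, and the stretch from 200 to 300 bp held 115 at 37.9 per Mb. From 300 to 400 bp there were 47 members (17.7 per Mb) and from 400 to 500 bp there were 60 (25.5 per Mb). Density thus fell over the first 400 bp, and the outer 100 bp of the range was close to the stretch beyond it.

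**Figure D1:**
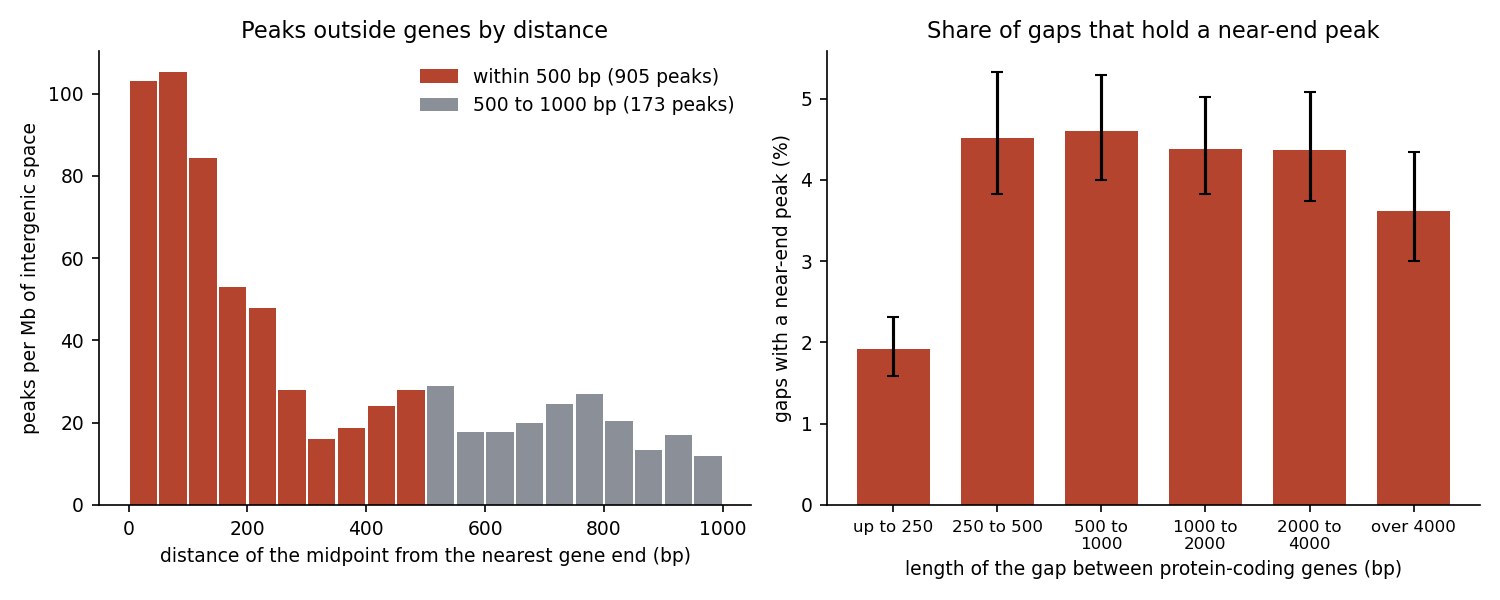
Left, peaks per Mb of intergenic space (y axis) in bins of 50 bp of distance from the nearest gene end (x axis), for the 905 members in red and the 173 peaks from 500 to 1000 bp in grey. Right, share of gaps between protein-coding genes that held a member (y axis, %, with 95% Wilson intervals for counting error) by length of the gap (x axis, bp). Density was highest in the first 100 bp, and gaps up to 250 bp held a member least often, at 1.92%.

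At the limit of 500 bp the values did not break. The 3 members just inside it were nearest to ASD1 at 493 bp (score 14.1), to TPR2, a gene of the TOPLESS-related corepressors, at 493.5 bp (19.0), and to AT1G61540 at 498 bp (8.51). The 3 peaks just outside it were nearest to PYL5, which encodes an abscisic acid receptor, at 502 bp (14.6), to the transcription factor gene NAC045 at 502.5 bp (11.7), and to EXL3 at 503 bp (57.8). The score is the value the authors deposited for each peak. The sources used here do not give its formula, and it served only to rank peaks within this list.

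By median score, the members lay close to the peaks just inside genes and above the peaks in other positions. Their scores ran between 5.10 and 749.6 with a median of 18.6 (95% interval from order statistics 17.55 to 19.48, for counting error), a lower quartile of 12.9 and an upper quartile of 30.9, against a median of 16.5 for the 2026 other peaks. Of the other classes, peaks just inside genes had a median of 18.5 (upper quartile 36.4), peaks deeper inside 14.2, peaks from 500 to 1000 bp outside 17.1 and peaks farther out 16.5. A score of at least 70, a round limit chosen with the values known, was reached by 92 members (10.2%, 8.36 to 12.3%) and by 173 of the other peaks (8.54%, 7.40 to 9.84%). The share in the whole list was 9.04%. Peaks just inside genes passed that limit in 12.4% of cases, and the classes deeper inside, from 500 to 1000 bp outside and farther out did so in 4.75%, 4.62% and 5.22%. Members made up 24.9% of the 421 peaks with a score under 10 (21.05 to 29.3%) and 36.8% of the 38 peaks with a score of 200 or more (23.4 to 52.7%), so these intervals overlapped. Peaks deeper inside genes made up 30.9% of the lowest level and 7.89% of the highest.

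**Figure D2:**
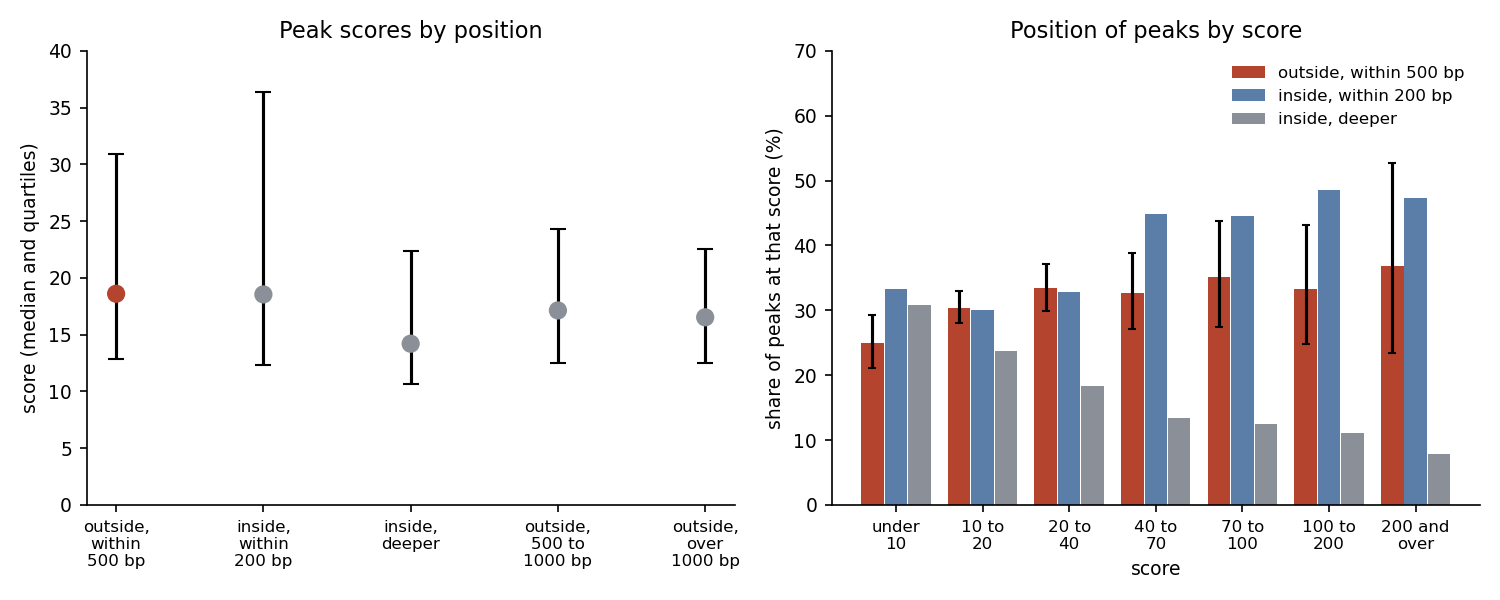
Left, score by position of the peak (points are medians, bars run between the quartiles). Right, share of all peaks at each level of score (y axis, %) that were members (red, with 95% Wilson intervals), lay just inside a gene end (blue) or lay deeper inside a gene (grey). The member share stayed between 24.9% and 36.8% at every level, while the share of peaks deeper inside genes was 30.9% below a score of 10 and 7.89% at 200 or more.

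Score changed little with distance inside the range. The median was 19.4 in the first 100 bp, then 18.1, 17.6, 19.6 and 16.9 in each further 100 bp. High scores, however, sat close to the gene: 52 of the 442 members in the first 100 bp and 28 of the 241 in the next had at least 70, against 6 of 115, 3 of 47 and 3 of 60 in the 3 bins beyond. Across the 905 members, Spearman's rho with the score was 0.57 for peak width, -0.07 for distance and -0.06 for the length of the gap. These values are descriptions over peaks of 1 library and have no test. The median member was 276 bp wide, against 274 bp for the other peaks, and widths of members lay between 196 and 1363 bp.

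Although every midpoint lay outside genes, most peaks reached into one. The peak overlapped 1 protein-coding gene in 459 members (50.7%) and at least 2 in 102 (11.3%), while 344 (38.0%) touched none. All 561 that overlapped a gene overlapped the nearest one. Members over at least 2 genes had a median score of 24.4 and a median width of 365.5 bp, and 26 of them (25.5%) had a score of at least 70. Members over 1 gene had a median score of 19.4 and a width of 292 bp, with 56 (12.2%) at 70 or more. Members that touched no gene had a median score of 16.5 and a width of 241.5 bp, with 10 (2.91%) at 70 or more. Width and score moved together among the members, and the parts of width and of overlap in these scores cannot be told apart.

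In 299 of the 905 (33.0%, 30.1 to 36.2%) the gene on the other side also had an end within 500 bp of the midpoint, and in 101 the peak covered the whole gap and reached both genes. Of the space within 500 bp of a gene end, 17.8% had genes that near on both sides. Members' gaps were nevertheless longer than gaps in general, with a median of 1078 bp against 877 bp, and 244 members (27.0%) lay in gaps up to 500 bp, a class that made up 36.4% of all gaps. The 299 members with both genes near had a median score of 19.9, against 17.9 for the 606 with 1 gene near. The genome had 23810 gaps between neighbouring protein-coding genes, of which 893 (3.75%) held a member. This share was 1.92% for the 5683 gaps up to 250 bp (1.59 to 2.31%) and between 3.62% and 4.60% for each longer class of gap. Set against the space they offer, the shortest gaps were the densest: members per Mb of space near an end came to 174.9 in gaps up to 250 bp, 123 in gaps of 250 to 500 bp, 62.9 in gaps of 500 to 1000 bp, and 36.5 in gaps over 4000 bp. Within the first 100 bp from a gene, the density was 179.2 per Mb in the shortest gaps and 72.0 per Mb in the longest.

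Another peak of the list lay within 1000 bp of 65 members (7.18%), and the median distance to the next peak was 9636 bp. The same was not counted for the other peaks, so this spacing cannot be called particular to members. The 905 members had 892 nearest genes, or 3.25% of 27444 protein-coding genes, and 1192 genes (4.34%) had an end within 500 bp of a member. At 12 genes there was more than 1 member. F2KP, the gene of a bifunctional enzyme that makes and breaks down fructose 2,6-bisphosphate, had 3, with scores of 16.3, 9.98 and 13.2. GSL12, which encodes a callose synthase, had members at both ends with scores of 136.9 and 18.2. HDA18, which encodes a histone deacetylase, had them at both ends with 34.7 and 52.4. Their midpoints were 10.5 and 124.5 bp from HDA18, but 11.5 and 139.5 bp from the gene on the other side. Either gene could thus be the one concerned. UBQ10, a polyubiquitin gene, had 26.9 at one end and 7.32 at the other, and GATA15, which encodes a GATA-type transcription factor, had 51.2 and 23.2. Other pairs were nearly equal, such as those of AT5G14020 (21.62 and 21.56) and AT5G11090 (24.7 and 24.1).

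Chromosome 5 held 229 members and chromosome 1 held 242, chromosome 3 had 178, chromosome 4 had 138 and chromosome 2 had 118. Per 1000 protein-coding genes this came to 36.2 on chromosome 5 and 27.3 on chromosome 2, with the others between 32.6 and 33.8. As a share of each chromosome's peaks, members ranged from 28.6% on chromosome 2 (24.5 to 33.2%) to 32.9% on chromosome 5 (29.6 to 36.5%), with intervals that overlapped. Chromosome 2 had 6 members with a score of at least 70 and chromosome 5 had 28.

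The highest-scoring member, which was also the highest peak of the whole list at 749.6, lay 125 bp from AT5G40460 on chromosome 5 from 16201764 to 16202269 (TAIR10), in a gap of 6253 bp. The next lay at AT3G12870 (chromosome 3, 4094893 to 4095423, score 385.7), where a peak of 531 bp bridged the gap of 301 bp to AT3G12880. The third lay at AT4G38062 (chromosome 4, 17875957 to 17876392, score 350.01), 27 bp from the gene. These 3 loci have only their locus code as a symbol here. None stood in a gene list described below, so no role is given for them, which does not mean that they lack one. Scores among the top 20 ran down to 171.6 at AT5G16250.

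Named genes of the cell cycle followed. SMR4, which encodes a SIAMESE-related inhibitor of cyclin-dependent kinases (CDKs), had a peak of 860 bp with a score of 274.9 (chromosome 5, 441914 to 442773). CYCD4;1, which encodes a D-type cyclin, had 273.5 (chromosome 5, 26141068 to 26141462), in a peak that touched no gene and lay 204.5 bp away. BARD1, whose product pairs with BRCA1 in DNA repair, had 270.7 (chromosome 1, 1036152 to 1036730) in a peak that bridged the gap of 228 bp to PSAT1. UVI4, which encodes an inhibitor of the anaphase-promoting complex, had 203.01 (chromosome 2, 17603447 to 17604014), and its relative UVI4-LIKE had 187.7 (chromosome 3, 21425925 to 21426493). FAS1, a gene of the largest subunit of chromatin assembly factor 1, had 195.3 (chromosome 1, 24323872 to 24324385).

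Other genes among the top 20 have names outside the cell cycle. FBS1 and FBS4, genes of F-box proteins named for stress induction, had 206.5 and 197.8. ACR7, which encodes a protein of ACT domain repeats, had 199.5 and COG0212 had 221.7. AT4G16141, listed with the synonym GATA17L of the GATA-type transcription factors, had 245.9 at one end and a lower member of 21.1 at the other. The remaining loci were AT4G14310 (242.8), AT2G39865 (238.8), AT1G09470 (207.6), AT2G07170 (204), AT5G62550 (184.8) and AT5G16250. The peak at AT2G39865 was the widest of all members, 1363 bp (chromosome 2, 16641390 to 16642752), and covered the whole of that gene. The next widest were those at DDB2, a gene of ultraviolet damage recognition, with 1078 bp, and at PPK1, a protein kinase gene, with 903 bp. Of the top 20, 10 lay within 100 bp of the gene and 8 had both flanking genes within 500 bp. Over all 905 members these counts were 442 (48.8%) and 299 (33.0%), so the top 20 were close to the members in general. For 10 of the 20 the nearest gene has only its locus code as a symbol, a share that was not counted over all members.

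**Figure D3:**
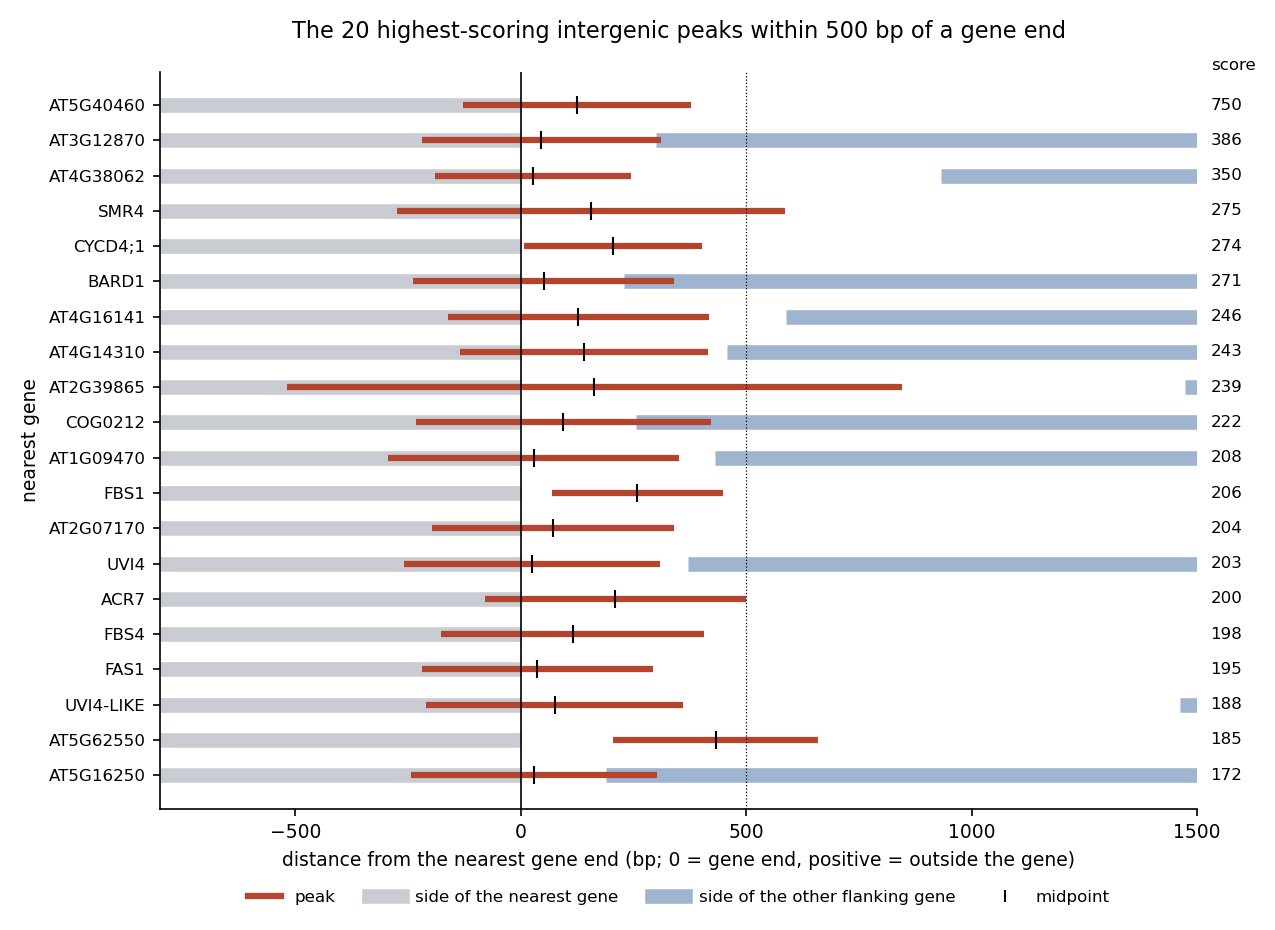
The 20 highest-scoring members, 1 per line in order of score (right), drawn to scale as distance from the end of the nearest gene (x axis, bp; 0 is the gene end). Red bars are peaks and ticks their midpoints; grey marks the side of the nearest gene and blue that of the other flanking gene, each whatever the length of the gene. Most peaks straddled the gene end, the peak at AT2G39865 was the widest, and those at AT3G12870, BARD1, COG0212 and AT5G16250 bridged the gap to the next gene.

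Genes of the cell cycle and genome maintenance were nearest to a member more often than genes in general. In 8 lists of such genes, 52 of 211 (24.6%, 19.3 to 30.9%) were the nearest gene of a member, against the 3.25% of all protein-coding genes given above. In 5 other lists, 11 of 139 genes (7.91%, 4.48 to 13.6%) were. Earlier results of these data were known when the lists were chosen, so these counts describe the members and are not independent evidence. Members at the 52 genes had a median score of 62.9, against 18.6 for all members, and 12 members at the 11 genes of the other lists had 15.9. Of the 92 members with a score of at least 70, 23 (25%) were nearest to a gene of the 8 lists, and of the 813 below it 29 (3.57%) were. The 52 members lay closer to the gene, with a median distance of 48.8 bp against 102.5 bp for all members. They were wider, with a median of 396 bp against 276 bp, and 46 of the 52 (88.5%, 77.0 to 94.6%) overlapped a gene, against 561 of 905 (62.0%, 58.8 to 65.1%). Counting only peaks wholly outside genes therefore left 6 of the 52. In 20 of the 52 both flanking genes were within 500 bp, and 8 of the peaks covered the whole gap, so the other gene could be the one concerned. Peaks just inside a gene end, the neighbouring position, were nearest to 73 of the 211 genes (34.6%), against a background of 3.58%, with a median score of 53.1.

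**Figure D4:**
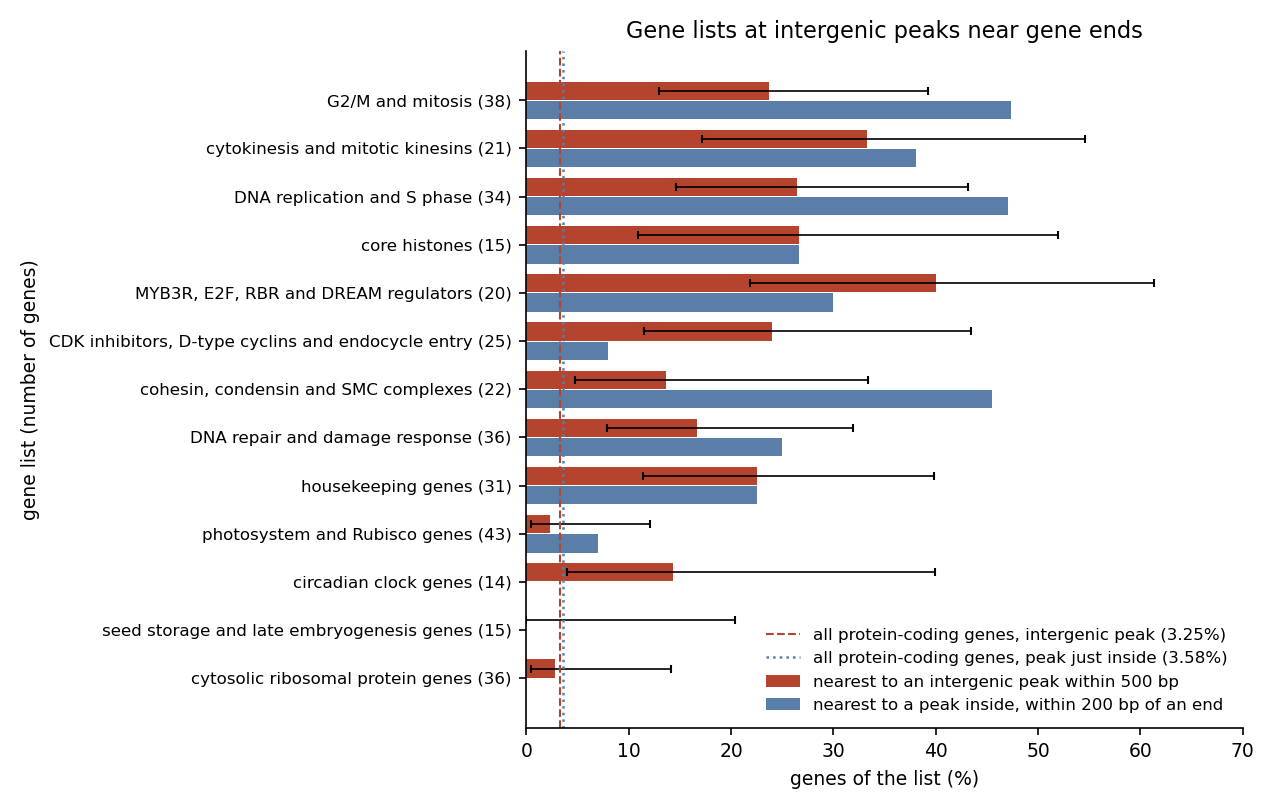
Share of each gene list (x axis, %; number of genes in brackets) that was nearest to a member (red, with 95% Wilson intervals) or to a peak inside a gene within 200 bp of its end (blue). Vertical lines mark the same shares over all protein-coding genes, 3.25% and 3.58%. The regulator list was highest for members at 40%, and no seed storage gene was nearest to a member.

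The list of regulators, of which the MYB3R genes were only a part, had the largest share, with an interval that overlapped those of the other cell cycle lists. Of 20 genes of the MYB3R, E2F, RBR and DREAM-type regulators, 8 (40%, 21.9 to 61.3%) were nearest to a member, with a median score of 35.2, and 6 had a peak just inside an end. MYB3R3 had 124.9 in a peak of 775 bp (chromosome 3, 2878852 to 2879626), where signal of the endogenous gene and of the construct cannot be told apart. TCX2, which encodes a CXC-domain protein of the kind found in DREAM complexes, had 118.9, the atypical E2F gene DEL3 had 70.3, and ALY1, a plant relative of the animal DREAM subunit LIN9, had 49.6. MYB3R5 had 20.7 in a peak 258 bp from the gene. The remaining family members differed in position: MYB3R4 had a peak just inside an end (32.8), MYB3R1 a peak deeper in the gene (25.02), and MYB3R2 had no peak.

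CDK inhibitors, D-type cyclins and genes of endocycle entry were nearest to a member in 6 of 25 cases (24.0%, 11.5 to 43.4%) and to a peak just inside an end in 2. Their median score of 154.8 was the highest of the 13 lists. Besides SMR4, CYCD4;1 and UVI4, the D-type cyclin gene CYCD4;2 had 106.6, CCS52A2, a gene of an activator of the anaphase-promoting complex, had 20.4, and the CDK inhibitor gene KRP1 had 20.07. The list thus fell into 4 genes above 100 and 2 near the median of all members.

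Genes of mitosis had members as well as peaks just inside their ends. Of 38 genes of G2/M and mitosis, 9 (23.7%, 12.99 to 39.2%) were nearest to a member, with a median score of 32.6, and 18 to a peak just inside an end, with a median of 58.0. UVI4-LIKE led, followed by PPK1 with 97.1, the B-type cyclin gene CYCB2;2 with 92.8, the Aurora kinase gene AUR1 with 79.3 and CYCB3;1 with 32.6. Of 21 genes of cytokinesis and mitotic kinesins, 7 (33.3%, 17.2 to 54.6%) were nearest to a member, with a median of 72.1, and 8 to a peak just inside an end, with a median of 87.9. KNOLLE, which encodes the syntaxin of the cell plate, had 159.2 (chromosome 1, 2710829 to 2711314). CSLD5, a cellulose synthase-like gene, had 104.6, the kinesin genes ATK1 and POK2 had 92.1 and 72.1, and RUK, a kinase-like gene of cytokinesis, had 54.01. Of 22 genes of cohesin, condensin and SMC complexes, 3 (13.6%, 4.75 to 33.3%) were nearest to a member and 10 to a peak just inside an end. CTF18, a gene of cohesion establishment, had 66.6, HEB2 of condensin had 62.5, and WAPL2, a gene of cohesin release, had 13.6 in a peak of 196 bp that also covered a tRNA gene.

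Replication, repair and histone genes were nearest to members too. Of 34 genes of DNA replication and S phase, 9 (26.5%, 14.6 to 43.1%) were nearest to a member, with a median of 57.3, and 16 to a peak just inside, with a median of 76.0. After FAS1 came ICU2, which encodes the catalytic subunit of DNA polymerase alpha, with 122.7, the helicase gene MCM5 with 69.2, ORC3 of the origin recognition complex with 63.3 and the origin licensing gene CDT1B with 57.3. Of 36 genes of DNA repair and damage response, 6 (16.7%, 7.87 to 31.9%) were nearest to a member, with a median of 123.4, and 9 to a peak just inside, with a median of 25.2. After BARD1 came BRCA2(IV) with 154.03, RPA3A, a gene of the single-strand binding complex, with 135.4, DDB2 with 111.5 and BRCA2B with 95.6. The RPA3A midpoint was 13 bp from that gene and 101 bp from AT3G52620. The BRCA2B midpoint was 46 bp from that gene and 59 bp from PRA1.B5. The DDB2 midpoint was 226 bp from that gene and 339 bp from cPT4, in a peak that reached both. In each case either gene could be the one concerned. Of 15 core histone genes, 4 (26.7%, 10.9 to 52.0%) were nearest to a member, with a median of 20.3, and 4 to a peak just inside. The H3.1 genes AT5G10390 and AT5G65360 had 89.8 and 15.1, the H2B gene HTB2 had 25.5 and the H2A gene HTA1 had 12.8.

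Among the other lists, housekeeping genes had a share within the range of the cell cycle lists. Of 31, 7 (22.6%, 11.4 to 39.8%) were nearest to a member, with a median score of 26.9, which was above that of the core histones and below those of the other 7 cell cycle lists. The beta-tubulin gene TUB7 had 119.2, the actin gene ACT7 100.9, TUB8 35.1, UBQ10 26.9 and GAPC1, which encodes a glycolytic dehydrogenase, 14.3. Of 14 circadian clock genes, PRR9 (38.9) and CCA1 (10.2) were nearest to a member (14.3%, 4.01 to 39.9%). Of 43 listed photosystem and Rubisco genes, LHCB4.1 alone (17.4) was (2.33%, 0.412 to 12.1%), and of 36 listed cytosolic ribosomal protein genes RPL23AB alone (13.4) was (2.78%, 0.492 to 14.2%). Both intervals included the 3.25% of all genes. None of 15 seed storage and late embryogenesis genes was, which allows a share of up to 20%. The CCA1 midpoint was 187.5 bp from that gene and 261.5 bp from PSI-P. The TUB7 midpoint was 149 bp from that gene and 353 bp from ENOC, in a peak that reached both. Here too either gene could be the one concerned.

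A further group of members lay on genes that the rule did not use, those of transfer RNAs (tRNAs), the short RNAs that carry amino acids to the ribosome and are made by RNA polymerase III. A tRNA gene was overlapped by 85 of the 905 members (9.39%), against 11 of the 2026 other peaks (0.543%). The midpoint itself lay inside a tRNA gene in 50 members and in 4 other peaks. Since tRNA genes themselves mostly lie near protein-coding genes, the comparison was also made over tRNA genes. Of 393 tRNA genes outside genes and within 500 bp of an end, 93 (23.7%, 19.7 to 28.1%) were overlapped by a peak, against 8 of 232 elsewhere (3.45%, 1.76 to 6.66%) and 16.2% of all 625. The kinds of tRNA gene differed between these groups. Near an end were 14 of 75 tyrosine, 20 of 66 proline and 32 of 64 serine tRNA genes, against 28 of 33 for alanine. Position and kind of tRNA gene therefore cannot be told apart in these shares.

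The 85 members over a tRNA gene were low in score, and most had their midpoint near the middle of that gene. They were chosen by overlap with it, which by itself limits the offset, and the offset expected from overlap alone was not worked out. In 58 of the 85 (68.2%) the midpoint lay within 50 bp of the middle of a tRNA gene, with a median offset of 28 bp and a largest of 182.5 bp, where a tRNA gene has a median length of 73 bp. Their median score was 15.8, with quartiles of 12.9 and 20.5, against 19.0 for the 820 members over none. A score of at least 70 was reached by 1 of the 85, against 91 of the 820, and none of the top 20 members covered a tRNA gene. Their median width was 232 bp, against 278 bp. Both flanking genes were within 500 bp in 40 of the 85 (47.1%, 36.8 to 57.6%), against 259 of the 820 (31.6%, 28.5 to 34.8%). The highest score belonged to a serine tRNA gene, AT5G10455 (86.1; chromosome 5, 3287353 to 3287761), followed by a proline tRNA gene, AT3G27845 (55.5), and a serine tRNA gene, AT5G02815 (48.8). By amino acid, 14 of the 26 aspartate tRNA genes lay under a member, where 21 of the 26 were near an end. For alanine it was 10 of 33 (28 near an end) and for glycine 9 of 41 (29 near an end). For arginine it was 8 of 36 (28 near an end) and for serine 8 of 64 (32 near an end). These amino acids were named for their counts, not their shares: serine had 12.5%, while valine, at 7 of 30, had 23.3%. Over all amino acids, 90 of the 625 tRNA genes lay under a member, where 393 were near an end. No asparagine, histidine or phenylalanine tRNA gene did, of 13, 7 and 12 such genes near an end. Genes of 1 amino acid are often near-identical in sequence, and the sources used here do not say how reads matching several places were treated. Whether the same sites stand out in input DNA was not tested.

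**Figure D5:**
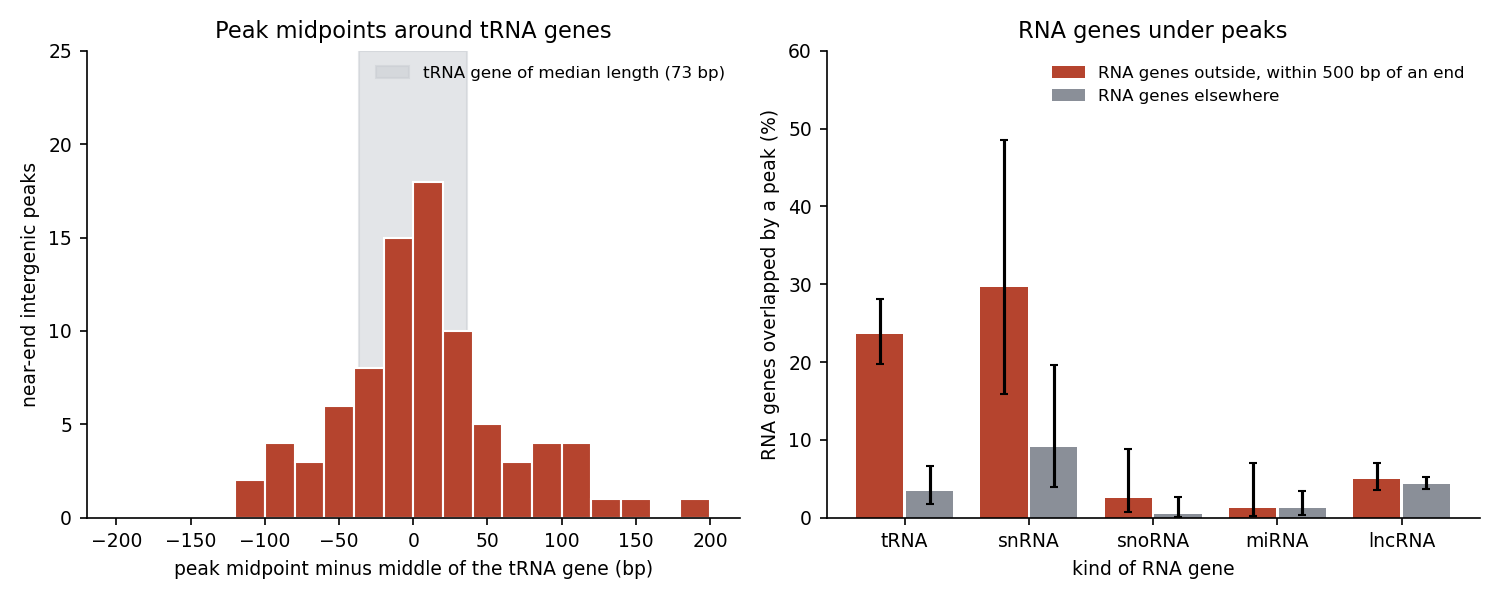
Left, number of members over a tRNA gene (y axis) by offset of the peak midpoint from the middle of the nearest such gene (x axis, bp), with a tRNA gene of median length in grey. Right, share of RNA genes overlapped by any peak (y axis, %, with 95% Wilson intervals) for genes outside protein-coding genes and within 500 bp of an end (red) and elsewhere (grey). tRNA genes reached 23.7% near ends against 3.45% elsewhere, and small nuclear RNA genes 29.6% against 9.09%.

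Genes of small nuclear RNAs, which serve in splicing, were also overlapped more often near an end, in small numbers. Of 27 such genes near an end, 8 (29.6%, 15.9 to 48.5%) were overlapped by a peak, against 5 of 55 elsewhere (9.09%, 3.95 to 19.6%), with intervals that overlapped. The scores were 35.6 for U12, 23.0 for U5.5, 18.7 for U5.6 and between 11.2 and 17.8 for U2.7, U5.10, U2.4, U2.5 and U1.5. Not all of these peaks were centred on the RNA gene. The offset of the midpoint was -0.5 bp for U5.5, 23 bp for U5.10 and -36.5 bp for U1.5. For the others it was larger than 50 bp, up to -348 bp for U2.7. Other RNA genes did not stand out. Members overlapped 2 microRNA genes, MIR5651 (35.7) and MIR158a (14.1), and small nucleolar RNA genes were under 2 members. Long non-coding RNA genes were overlapped by 40 members (4.42%) and by 114 of the other peaks (5.63%). Without the 85 members over tRNA genes, the remaining 820 had a median score of 19.0, and 51 genes of the 8 cell cycle lists were nearest to one of them.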

How the data were processed

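Chromatin of MYB3R3-GFP seedlings was measured as 1 ChIP library with a deposited peak list. The submitters' processing notes name the build TAIR10 and the tools MACS2, Bowtie 0.12.7 and SAMtools 0.1.18. The sources used here do not give the role of each tool, the peak threshold, the use of the input or the read depth. The authors deposited a score per peak, on a scale that no source explains. Starts and ends are other values as deposited, in bp, with the start counted from 0; coordinates are printed counting from 1.

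A peak stood at the mean of its start and end. Genes came from a RefSeq table of assembly TAIR10.1, taken to share the coordinates of TAIR10, with 27444 protein-coding genes on chromosomes 1 to 5. A midpoint on a gene end counted as inside. A peak was given to the gene with the nearest end. Gaps lay between neighbouring merged genes. The 13 lists (350 loci) were rebuilt from the names in that table. They need not hold every gene of a family, so their counts apply to the listed genes only. The members and the lists were chosen with earlier results of these data known.

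Named genes were those nearest to the 20 highest-scoring members, up to 5 per list, MYB3R1 to MYB3R5, the 3 members and 3 peaks on each side of the limit, and the 3 widest members. KRP1, genes with more than 1 member and RNA genes were named after their values were seen. Classes of position were tested on 1000 simulated peaks. Strand and sequence were not used here, so the planned share of 5′ ends and the motif counts were not run. The scripts ran in Python 3.11.15 with SciPy 1.17.1, NumPy 2.4.6, pandas 2.3.3 and, for plots, matplotlib 3.10.9.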

Additional observations from a re-analysis of the deposited data

How the results depend on the processing

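Of 42 alternatives for the number, the median score, the share with a second gene near and the counts over the cell cycle and other lists, 26 stayed within the interval or within 1.5 times and 16 moved. With the whole peak outside genes, the number of members was 344, the median score 16.5, the share with a second gene within 500 bp 19.5%, and the list counts 6 for the cell cycle lists and 3 for the other lists, against 905, 18.6, 33.0%, 52 and 11. With the 1466 highest-scoring peaks, the number was 497, the median 27.9 and the count of the other lists 6. With the 733 highest, the number was 243, the median 55.5, the share 38.3%, and the counts 34 and 4. These settings use fewer peaks by construction. The share with a second gene, kept at 500 bp, was 37.8% among members within 250 bp of an end, 27.7% among those within 1000 bp and 38.0% with all annotated genes; the cause of the last was not tested. Of 117 alternatives for single lists, 93 stayed within 1.5 times, 22 moved down and 2 up. Chosen after seeing the data were gene ends counted as outside (907 members) and peaks over tRNA genes left out (820). No paired analysis was possible because the series holds 1 ChIP library, and none could be left out. Alternatives for the share of 5′ ends and for motifs were not run, nor was any test. Read depth is unknown, so binding below the authors' threshold was not detectable, and peaks at gene ends shared by neighbours name a nearest gene, not a target.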
